A study of Homo sapiens with 6 samples.

Results

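Interferon-stimulated genes are the effector genes that cells switch on when type I interferon binds its receptor. The receptor chains IFNAR1 and IFNAR2 activate the kinases JAK1 and TYK2, which phosphorylate STAT proteins such as STAT2, and these join IRF9 in a complex that binds interferon-stimulated response elements (ISREs) in promoters. The products block viruses at entry, translation and replication, and several of them, such as the RNA sensors, also feed back on the pathway. The 49 genes described here were listed by name, among them the IFIT, IFITM and OAS families and the RNA sensors, and all 49 are among the 26410 rows of the count table.

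The RNA came from cultured Kasumi-1 cells, a line of human acute myeloid leukaemia with the RUNX1::RUNX1T1 fusion. The shPHF19 group (3 libraries) received a lentiviral hairpin against PHF19, an accessory subunit of Polycomb repressive complex 2, and the control group (3 libraries) received a scrambled hairpin, although control samples carry WT as their treatment label. The silencing vector encodes green fluorescent protein and puromycin resistance, and both groups were kept under 2 µg/ml puromycin, begun 48 h after the virus, for at least 24 h. How many hairpins were used, and whether the cells are a pool or a clone, was not stated. Nor do the labels say if replicates are separate cultures, so p-values reflect only how far these libraries scatter, which may be technical.

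The libraries hold 14229878 to 16615143 counts, and levels are given as CPM, counts relative to the TMM-scaled library size. A gene with no count may still have a level of up to 3 counts by counting error alone, or 0.194 to 0.223 CPM in shPHF19 and 0.177 to 0.195 CPM in control libraries. PHF19 stood at 41.1, 36.9 and 33.0 CPM in shPHF19 cells, against 168, 199 and 189 CPM in control cells, a log2 fold change of -2.32 (SE 0.0975, edgeR adjusted p = 3.55e-25). CD34, KIT, MPO and RUNX1T1, which define this line, were all present, and the summed level of 6 myeloid progenitor markers was 12433 to 13182 CPM in shPHF19 cells and 7709 to 8001 CPM in control cells. Most of that sum was MPO, at 8394 CPM in shPHF19 cells and 4278 CPM in control cells. Of the 6, CD34, CD33 and MPO rose, ANPEP and RUNX1T1 fell, and KIT did not pass. Of 15 monocyte and macrophage markers, 11 were tested, and 8 of these fell and 1 rose. Among all genes tested, 30.9% fell and 29.4% rose. The summed level of the 15 was 109 to 110.3 CPM in shPHF19 cells and 307 to 315 CPM in control cells. No marker of that list was at 0 in all libraries, but CD14 had 3 counts over the shPHF19 and 4 over the control libraries. The part of these markers in the results was not tested, and in bulk RNA fewer cells of a type and less RNA per cell cannot be told apart.

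The interferon-stimulated genes did not move as a block. Of the 49, 44 had enough counts to be tested, with 9 higher, 18 lower and 17 not past an adjusted p of 0.05 (edgeR quasi-likelihood test, adjusted over 13014 genes). The share called, 61.4%, is near the 60.2% called among all genes tested, while the share that fell was 40.9% against 30.9% of all genes and the share that rose was 20.5% against 29.4%. The median log2 fold change was -0.20 over the 44 tested members and -0.03 over all genes tested, and the members' median was -0.13 without shPHF19 replicate 3. Changes of at least 2-fold numbered 3 upward and 5 downward, or 6.82% and 11.4% of those tested, where 5.72% and 10.9% of all genes changed as much. For 31 members the libraries of both groups were fully separated, with 11 up and 20 down in shPHF19 cells, against 63.5% of all genes tested (30.9% higher and 32.6% lower). Counts by family given below rest on few genes and are to be read beside these shares of all genes.

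The balance between rises and falls depended on the scaling of the libraries. TMM factors were 0.919 to 0.945 in shPHF19 and 1.06 to 1.08 in control libraries. With library totals only, the median of all genes was -0.24, and 6 members rose and 24 fell, where 19.9% of all genes rose and 43.2% fell. With upper-quartile factors 7 members rose and 19 fell, where 24.5% of all genes rose and 36.7% fell. As a share of all counts the 49 genes held 0.139 to 0.142% in shPHF19 libraries and 0.152 to 0.156% in control libraries, whereas their summed TMM-scaled level was 1498 to 1525 CPM in shPHF19 cells and 1429 to 1437 CPM in control cells. Of the family sums, only that of the IFITM genes was fully higher, at 409 to 456 CPM in shPHF19 and 238 to 258 CPM in control cells. The sums of the IFIT genes, the sensors, the PARP and nuclear body proteins, and the IFI and guanylate-binding protein genes were fully lower.

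**Figure D1:**
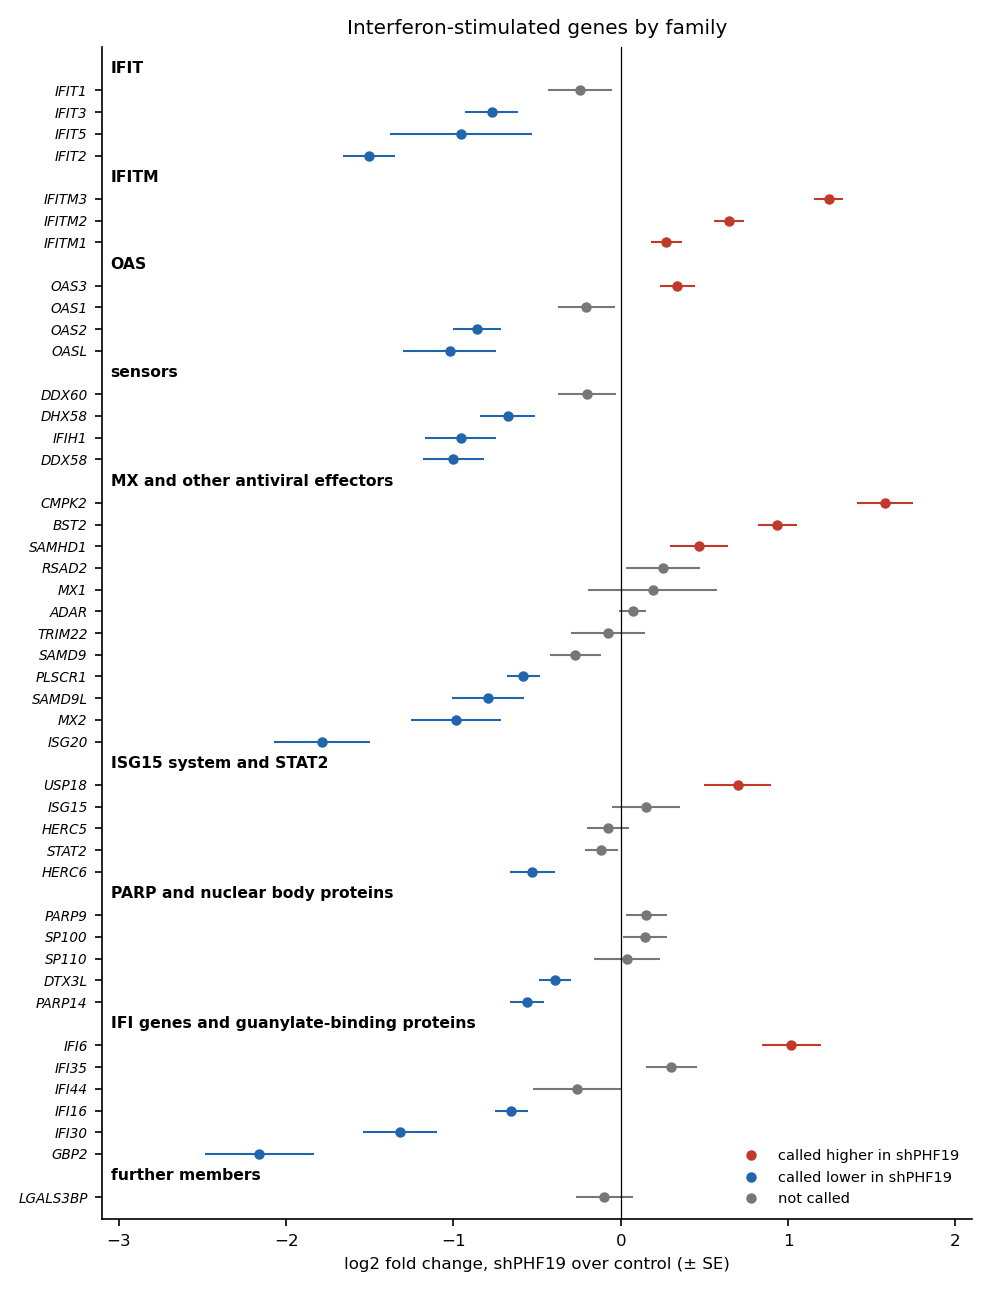
Log2 fold change (x axis, shPHF19 over control, with its standard error as bars) of the 44 tested interferon-stimulated genes, grouped by family down the page and coloured by call. The 3 IFITM genes lie to the right of 0 and the 4 IFIT genes to the left, while the OAS family has members on both sides.

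The ISRE is the element through which type I interferon acts, and the 250 bases before each gene's start in RefSeq (GRCh38.p14) were searched for its core, GAAA and again GAAA with any 2 bases between them, on both strands. Promoters were matched for 40 members, not for IFIT2, IFITM2, OAS2, OASL, DHX58, MX2, TRIM22, USP18 and GBP2. Of the 40, 22 (55.0%) held the core, against 3.02% of all 35116 RefSeq promoters of that length. It was present in 5 of 7 matched members that rose, 6 of 12 that fell and 7 of 16 that did not pass, so risers and fallers both carried it. Only 12 of the 18 members that fell were matched, against 7 of the 9 that rose. GBP2 and IFIT2, with large falls, are among those not searched. The 38 matches lay between 164 and 3 bases before the start, and 8 of them overlapped another match. TTCNNNGAA, the gamma-activated sequence (GAS) of interferon gamma responses, was present in 8 of the 40 and in 6.57% of all promoters, and 4 ISRE core matches overlapped one. A match describes letters in this window only.

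The promoters below are those of the 4 members with the largest called changes, at a mean of at least 5 CPM, whose matched window holds the core. Among them only IFIH1 fell, and its overlapping cores lie in reverse orientation, unlike the cores of the others. Whether the core bears on direction was not tested. Capitals mark this core or its reverse complement, and each run ends 1 base before the gene's start. They lie on the minus strand at chr11:320861-321110 (IFITM3, rose), chr1:27672193-27672442 (IFI6, rose), chr19:17405631-17405880 (BST2, rose) and chr2:162318685-162318934 (IFIH1, fell), on GRCh38.p14.
IFITM3: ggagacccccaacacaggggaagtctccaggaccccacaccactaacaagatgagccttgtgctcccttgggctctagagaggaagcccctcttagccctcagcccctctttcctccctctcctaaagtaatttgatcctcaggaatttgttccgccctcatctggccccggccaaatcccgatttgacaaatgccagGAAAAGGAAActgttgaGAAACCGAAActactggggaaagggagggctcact
IFI6: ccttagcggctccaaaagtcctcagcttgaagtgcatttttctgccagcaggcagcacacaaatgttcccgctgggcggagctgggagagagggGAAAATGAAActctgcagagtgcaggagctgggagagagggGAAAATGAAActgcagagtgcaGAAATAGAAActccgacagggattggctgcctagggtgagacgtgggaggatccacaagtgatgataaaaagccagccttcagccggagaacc
BST2: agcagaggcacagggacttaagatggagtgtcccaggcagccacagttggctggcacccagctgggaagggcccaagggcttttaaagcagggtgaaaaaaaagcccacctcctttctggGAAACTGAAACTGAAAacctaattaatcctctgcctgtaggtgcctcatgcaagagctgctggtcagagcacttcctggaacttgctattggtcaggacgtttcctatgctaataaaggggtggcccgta
IFIH1: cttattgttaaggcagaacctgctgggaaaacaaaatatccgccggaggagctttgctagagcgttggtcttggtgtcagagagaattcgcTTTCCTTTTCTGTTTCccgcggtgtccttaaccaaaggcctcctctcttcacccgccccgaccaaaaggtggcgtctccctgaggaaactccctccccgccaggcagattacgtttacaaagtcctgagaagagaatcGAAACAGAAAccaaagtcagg
In BST2 and in IFIH1 cores overlap, and IFI6 holds 3 separate copies.

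**Figure D2:**
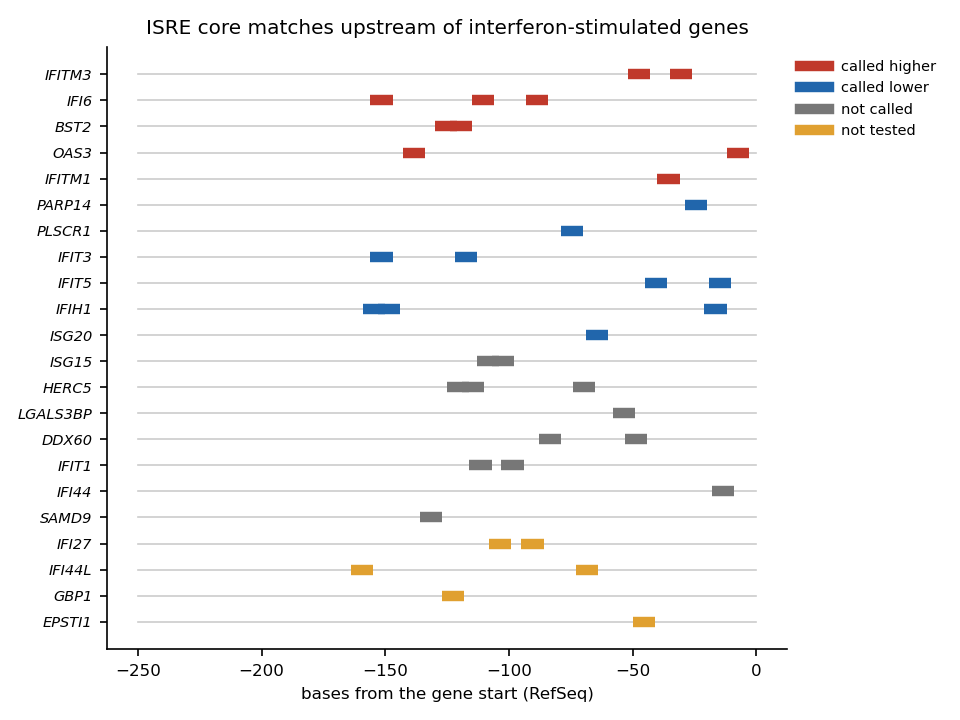
Positions of ISRE core matches (x axis, bases from the RefSeq gene start) in the 250 bases before the start of the 22 members that hold one, coloured by call. Matches of members that rose and of members that fell lie over much the same stretch, from 156 bases before the start in members that rose and from 159 bases in members that fell.

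The IFITM genes encode small membrane proteins that stop enveloped viruses from fusing with the cell, and all 3 rose. IFITM3 had 224, 195 and 200.5 CPM in shPHF19 cells, against 80.6, 90.8 and 90.1 CPM in control cells. Every shPHF19 value was more than 2-fold above every control value, and the fold change was 2.37 (log2 fold change 1.24, SE 0.0875, edgeR adjusted p = 5.58e-17). IFITM2 stood at 149, 136 and 146 CPM in shPHF19 cells, against 92.2, 97.8 and 85.7 CPM in control cells. The groups did not overlap, with a log2 fold change of 0.65 (SE 0.0873, edgeR adjusted p = 1.36e-08). IFITM1 was at 82.6, 78.4 and 82.7 CPM in shPHF19 cells, against 65.5, 69.2 and 66.9 CPM in control cells. These values do not overlap either, but the difference was small, with a log2 fold change of 0.27 (SE 0.0924, edgeR adjusted p = 0.00973), and IFITM1 was no longer called with upper-quartile factors (0.17, edgeR adjusted p = 0.108) and with total counts as the scale (0.07, adjusted p in edgeR = 0.53; 0.00264 to 0.53 over all alternatives). IFITM2 and IFITM3 rose under each alternative run.

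Per kilobase of annotated exon the IFITM genes were the most abundant members. IFITM3 had 153 ± 11.5 in shPHF19 cells and 64.7 ± 4.26 in control cells CPM per kilobase (SD, n = 3 each). IFITM2 had 93.3 ± 4.58 in shPHF19 cells and 59.6 ± 3.93 in control cells, and IFITM1 had 75.2 ± 2.28 in shPHF19 cells and 62.2 ± 1.76 in control cells, on the same scale. In control cells the libraries of the 3 genes overlapped on this scale, while in shPHF19 cells every library had IFITM3 above IFITM2 and IFITM2 above IFITM1. In GENCODE 29 the span of IFITM2 (chr11:307631-315272, plus strand of chromosome 11, GRCh38) runs to the end of IFITM1 (chr11:313506-315272, plus strand), and the IFITM coding sequences are closely related, so their counts depend on how shared reads were assigned.

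The IFIT genes, some of whose products bind viral RNA ends and restrain translation, went the other way. Of the 4, 3 fell, and IFIT5 among them only just passed. IFIT2 had 6.83, 8.29 and 8.19 CPM in shPHF19 cells, against 24.7, 20.4 and 21.3 CPM in control cells. Every control value was more than 2 times every shPHF19 value, and the fall was 2.84-fold (log2 fold change -1.51, SE 0.156, edgeR adjusted p = 1.28e-11). IFIT3, the partner that stabilises IFIT1, was at 8.76, 11.3 and 12.5 CPM in shPHF19 cells, against 20.4, 19.9 and 15.4 CPM in control cells. Here too the groups stayed apart, with a log2 fold change of -0.77 (SE 0.159, edgeR adjusted p = 4.61e-05). IFIT1 did not pass, at 6.83, 7.0 and 7.64 CPM in shPHF19 cells, against 8.49, 9.90 and 7.0 CPM in control cells. Its control replicate 3 lies among the shPHF19 values, and the log2 fold change was -0.24 (edgeR adjusted p = 0.269). IFIT5 averaged 0.957 ± 0.250 CPM in shPHF19 cells and 1.88 ± 0.313 CPM in control cells (SD, n = 3 each), so that its log2 fold change was -0.96 (edgeR adjusted p = 0.0477). That call was lost in 12 of 15 alternatives, among them the fits without any 1 of the 6 libraries (edgeR adjusted p = 0.0579 to 0.179), DESeq2 (adjusted p = 0.111), limma-voom (adjusted p = 0.0515), DESeq2 size factors in edgeR (adjusted p = 0.0517), every gene with a count (edgeR adjusted p = 0.0892) and the replicate block (edgeR adjusted p = 0.0654). Its adjusted p ran over 0.0158 to 0.179 in all alternatives.

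The OAS genes encode synthetases of 2'-5' oligoadenylate, an antiviral second messenger, except that OASL lacks this activity and acts through RIG-I. Of the 4 genes 1 rose, 2 fell and 1 did not pass. OAS2 fell, with 11.1, 11.1 and 12.0 CPM in shPHF19 cells, against 19.6, 21.3 and 21.3 CPM in control cells. The groups did not overlap, at 1.81-fold lower (log2 fold change -0.86, SE 0.145, edgeR adjusted p = 1.64e-06). OASL averaged 2.39 ± 0.537 CPM in shPHF19 cells and 4.89 ± 1.11 CPM in control cells and fell too (-1.02, edgeR adjusted p = 0.00146; SD, n = 3 each). OAS3 rose, with 60.4 ± 3.88 CPM in shPHF19 cells and 47.7 ± 4.97 CPM in control cells (SD, n = 3 each; log2 fold change 0.34, edgeR adjusted p = 0.00414). It lies between OAS1 and OAS2 on chromosome 12, and it was not called with library totals only (0.13, adjusted p in edgeR = 0.267; 0.00116 to 0.267 over all alternatives). OAS1 did not pass (-0.20, edgeR adjusted p = 0.308), although its 3 shPHF19 values, 7.99 to 9.80 CPM, were below its control values of 10.0 to 10.8 CPM.

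**Figure D3:**
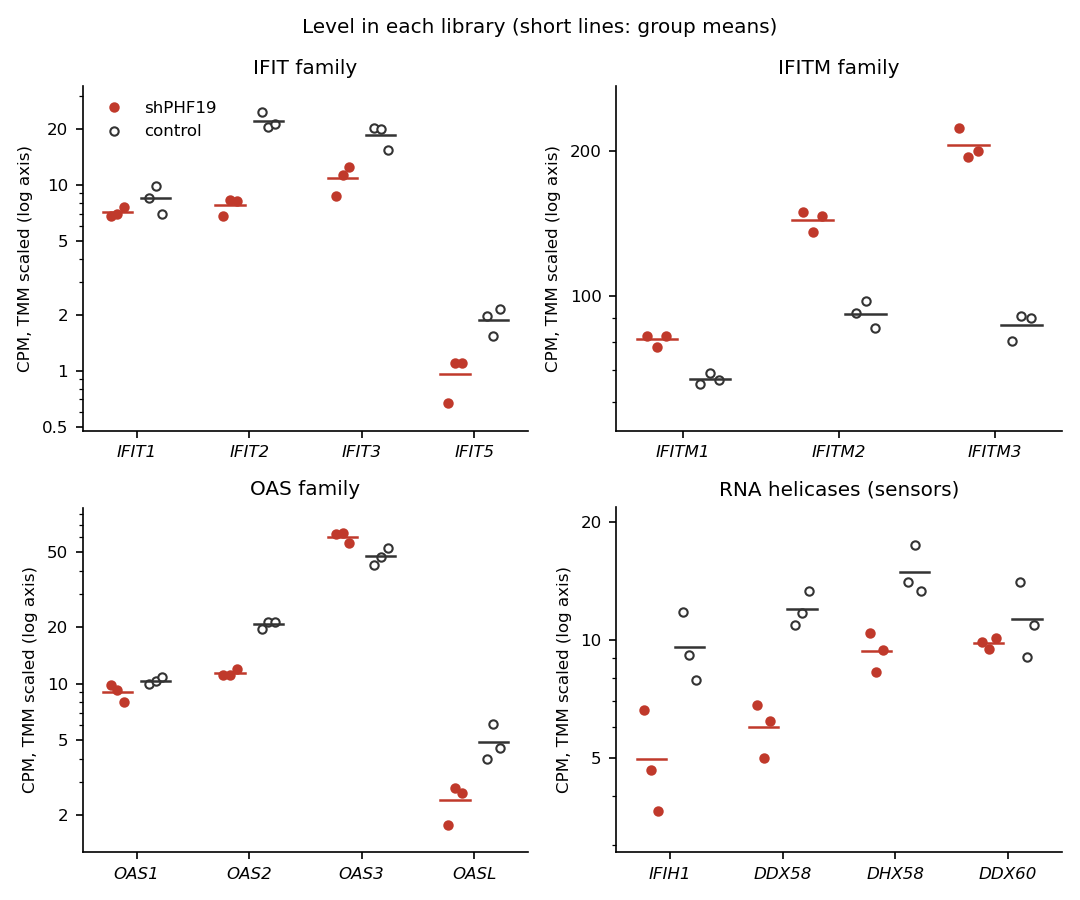
CPM (y axis, TMM scaled, log axis) of each library for the IFIT, IFITM and OAS families and the RNA helicases, with shPHF19 libraries as filled and control libraries as open points and group means as short lines. IFITM3 and IFIT2 show the widest gaps between the groups, in opposite directions, and IFIT1 and DDX60 overlap.

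Of 4 cytosolic RNA helicases of the sensor family 3 fell and 1 did not pass. DDX58, which encodes RIG-I, had 6.83, 4.99 and 6.20 CPM in shPHF19 cells, against 10.9, 11.7 and 13.3 CPM in control cells. The groups stayed apart, at 2.00-fold lower (log2 fold change -1.0, SE 0.183, edgeR adjusted p = 6.56e-06). IFIH1, which encodes MDA5, the sensor of long double-stranded RNA, was at 6.61, 4.66 and 3.65 CPM in shPHF19 cells, against 11.8, 9.13 and 7.91 CPM in control cells. Its shPHF19 values were spread widely, from 3.65 to 6.61 CPM, but stayed below the lowest control value of 7.91 CPM (log2 fold change -0.96, SE 0.211, edgeR adjusted p = 0.000119). DHX58, which encodes LGP2, a regulator of the other sensors, had 10.4, 8.29 and 9.43 CPM in shPHF19 cells, against 14.0, 17.5 and 13.3 CPM in control cells. That is a log2 fold change of -0.68 (SE 0.164, edgeR adjusted p = 0.000417). DDX60, a related helicase, did not pass (-0.20, edgeR adjusted p = 0.317), and control replicate 2, at 9.02 CPM, lies below its shPHF19 values.

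Of 12 other antiviral effectors 3 rose, 4 fell and 5 did not pass, and the largest rise was that of CMPK2, a nucleotide kinase induced with viperin. CMPK2 stood at 15.9, 18.1 and 17.8 CPM in shPHF19 cells, against 5.60, 5.78 and 5.97 CPM in control cells. All shPHF19 values were over 2 times the control values (log2 fold change 1.58, SE 0.167, edgeR adjusted p = 2.29e-11). BST2, which encodes tetherin, a tether of budding virions, had 40.7, 42.5 and 42 CPM in shPHF19 cells, against 22.2, 23.0 and 20.2 CPM in control cells. Its values were tight within each group and 1.91-fold higher in shPHF19 cells (log2 fold change 0.94, SE 0.116, edgeR adjusted p = 1.65e-09). SAMHD1, a dNTP hydrolase that limits reverse transcription, averaged 11.9 ± 1.38 CPM in shPHF19 cells and 8.6 ± 1.04 CPM in control cells (SD, n = 3 each; 0.47, edgeR adjusted p = 0.0165). The SAMHD1 call was lost without shPHF19 replicate 3 (edgeR adjusted p = 0.0841), without control replicate 2 (edgeR adjusted p = 0.0597), as it was with upper-quartile factors or library totals only (adjusted p in edgeR = 0.0611 and 0.181; 0.00845 to 0.181 over all alternatives).

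Of the effectors that fell, ISG20, an exonuclease, averaged 1.72 ± 0.823 CPM in shPHF19 cells and 6.01 ± 0.571 CPM in control cells (SD, n = 3 each), which is 3.44-fold lower (log2 fold change -1.78, SE 0.287, edgeR adjusted p = 6.37e-07). PLSCR1, a phospholipid scramblase, had 47.1, 51.8 and 47.7 CPM in shPHF19 cells, against 76.4, 74.6 and 68.4 CPM in control cells. The groups were clearly apart at a log2 fold change of -0.58 (SE 0.0981, edgeR adjusted p = 1.57e-06). SAMD9L, a growth-restraining neighbour of SAMD9, was at 4.01, 3.82 and 4.54 CPM in shPHF19 cells, against 8.42, 6.6 and 6.42 CPM in control cells. This gave a log2 fold change of -0.79 (SE 0.217, edgeR adjusted p = 0.0016), while SAMD9 did not pass (-0.27, edgeR adjusted p = 0.123). MX2, a dynamin-like GTPase that blocks nuclear import of retroviral genomes, averaged 2.45 ± 0.258 CPM in shPHF19 cells and 4.85 ± 0.168 CPM in control cells (SD, n = 3 each; -0.98, edgeR adjusted p = 0.00147). Its relative MX1 did not pass, at 1.91 CPM in shPHF19 cells and 1.66 CPM in control cells (0.19, edgeR adjusted p = 0.688).

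ADAR, the editor of double-stranded RNA, had the most counts of all members and stood at 398, 389.9 and 369 CPM in shPHF19 cells, against 351, 361 and 388 CPM in control cells. The groups overlap, and the log2 fold change was 0.07 (edgeR adjusted p = 0.447). RSAD2, which encodes viperin, was at 5.73 CPM in shPHF19 cells and 4.81 CPM in control cells (0.25, edgeR adjusted p = 0.326), and TRIM22 at 5.22 CPM in shPHF19 cells and 5.51 CPM in control cells (-0.08, edgeR adjusted p = 0.78). The directions of ADAR and MX1 turned negative with library totals only, and that of ADAR also with upper-quartile factors.

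In the ISG15 system with STAT2, 1 of 5 genes rose and 1 fell. ISG15, the ubiquitin-like modifier of this response, did not pass, at 6.47 CPM in shPHF19 cells and 5.82 CPM in control cells (0.15, edgeR adjusted p = 0.531). USP18, the protease that removes ISG15 and also blocks the interferon receptor, rose. It had 7.65, 10.8 and 9.50 CPM in shPHF19 cells, against 6.21, 4.48 and 6.61 CPM in control cells. The lowest shPHF19 value was above the highest control value by about 1 CPM, and the log2 fold change was 0.70 (SE 0.199, edgeR adjusted p = 0.00227). HERC5, the main ligase for ISG15 in human cells, was at 27.1 CPM in shPHF19 cells and 28.6 CPM in control cells (-0.08, edgeR adjusted p = 0.61), and its neighbour HERC6 had 14.8, 17.6 and 16.5 CPM in shPHF19 cells, against 23.6, 22.5 and 24.8 CPM in control cells. HERC6 fell, with a log2 fold change of -0.53 (SE 0.135, edgeR adjusted p = 0.000744). STAT2, the STAT partner of IRF9, was at 55.9, 59.5 and 53.8 CPM in shPHF19 cells, against 63.7, 64.1 and 55.7 CPM in control cells. Its groups overlap (log2 fold change -0.12, edgeR adjusted p = 0.314), and it was called lower with library totals only (-0.32, adjusted p in edgeR = 0.00465; 0.00465 to 0.62 over all alternatives).

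Of 5 genes of PARP and nuclear body proteins 2 fell and 3 did not pass. PARP14, an ADP-ribosyltransferase, had 42.1, 41.5 and 41.2 CPM in shPHF19 cells, against 61.1, 58.6 and 64.6 CPM in control cells. It fell, with a log2 fold change of -0.56 (SE 0.101, edgeR adjusted p = 4.86e-06). DTX3L, the E3 ligase partner of PARP9, was at 57.0, 67.2 and 69.1 CPM in shPHF19 cells, against 89.5, 81.6 and 82.7 CPM in control cells. It fell by less (-0.39, SE 0.0959, edgeR adjusted p = 0.000448), while PARP9 itself did not pass (0.15, edgeR adjusted p = 0.279). The nuclear body proteins SP100 (0.15, edgeR adjusted p = 0.353) and SP110 (0.04, edgeR adjusted p = 0.88) did not pass, and the directions of PARP9, SP100, SP110 and also ISG15 turned negative with library totals only.

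Of 9 IFI and guanylate-binding protein genes 6 were tested, 1 rose and 3 fell. IFI6, a mitochondrial and endoplasmic reticulum protein that opposes apoptosis, stood at 15.7, 15 and 12.7 CPM in shPHF19 cells, against 6.58, 8.66 and 6.03 CPM in control cells. It was 2.03-fold higher (log2 fold change 1.02, SE 0.174, edgeR adjusted p = 1.87e-06). IFI16, a nuclear DNA sensor, had 67.1, 62.8 and 84.3 CPM in shPHF19 cells, against 118, 110.3 and 108 CPM in control cells. Its shPHF19 replicate 3 was the highest of that group and still below every control value (log2 fold change -0.65, SE 0.0969, edgeR adjusted p = 1.14e-07). IFI30, a lysosomal thiol reductase of antigen processing that monocytes express, was at 4.01, 2.72 and 3.24 CPM in shPHF19 cells, against 8.55, 7.43 and 8.82 CPM in control cells. That is 2.49-fold lower (log2 fold change -1.32, SE 0.221, edgeR adjusted p = 1.35e-06). GBP2, an interferon-induced GTPase, had the largest fall of all members, averaging 1.12 ± 0.504 CPM in shPHF19 cells and 4.99 ± 0.644 CPM in control cells (SD, n = 3 each; log2 fold change -2.16, SE 0.328, edgeR adjusted p = 1.94e-07). IFI35 (0.30, edgeR adjusted p = 0.0849), IFI44 (-0.26, edgeR adjusted p = 0.407) and the secreted glycoprotein gene LGALS3BP (-0.10, edgeR adjusted p = 0.636) did not pass.

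The remaining 5 members, all with fewer than 40 counts over the 6 libraries, were not tested. IFI27 had 5, 4 and 0 counts in the shPHF19 libraries and 1, 7 and 8 in the control libraries. EPSTI1 had 6, 10 and 5 counts in the shPHF19 libraries and 2, 9 and 5 in the control libraries. XAF1 had 3, 0 and 0 counts in the shPHF19 libraries and 6, 3 and 2 in the control libraries, GBP1 had 3 counts in all over the shPHF19 and 4 over the control libraries, and IFI44L had 1 and 2. IFI44L and IFI27 are among the genes that interferon raises most in blood cells, and here they were at or near the limit of detection in both groups.

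Members that lie next to each other did not always move together. Within 500 kb of one another lay 27 members in 11 groups. The IFIT cluster on chromosome 10 fell in 3 of 4 genes and the IFITM cluster on chromosome 11 rose in all 3. In the OAS cluster OAS3 rose and OAS2 fell, a split in direction that held under each alternative, although the rise of OAS3 was not called with library totals only. CMPK2 and RSAD2 run in opposite directions on chromosome 2 and overlap at their starts; CMPK2 rose and RSAD2 was not called, and the difference between the pair was not tested. Between MX2 and MX1, HERC6 and HERC5, and SAMD9L and SAMD9, the first fell and the second was not called. In GENCODE 29, 10 members overlap a counted gene on the opposite strand (IFIT1, IFIT2 and IFIT3 with LIPA, CMPK2 with RSAD2, PARP9 with DTX3L, SAMHD1 with TLDC2, TRIM22 with TRIM5, SP110 with SP140), and GBP2 overlaps GBP7 on the same strand. These overlaps are of whole gene spans, introns included, and shared exon bases were not measured. Whether counting used strand is not stated, so reads from any shared bases cannot be told apart, and these values are less certain.

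**Figure D4:**
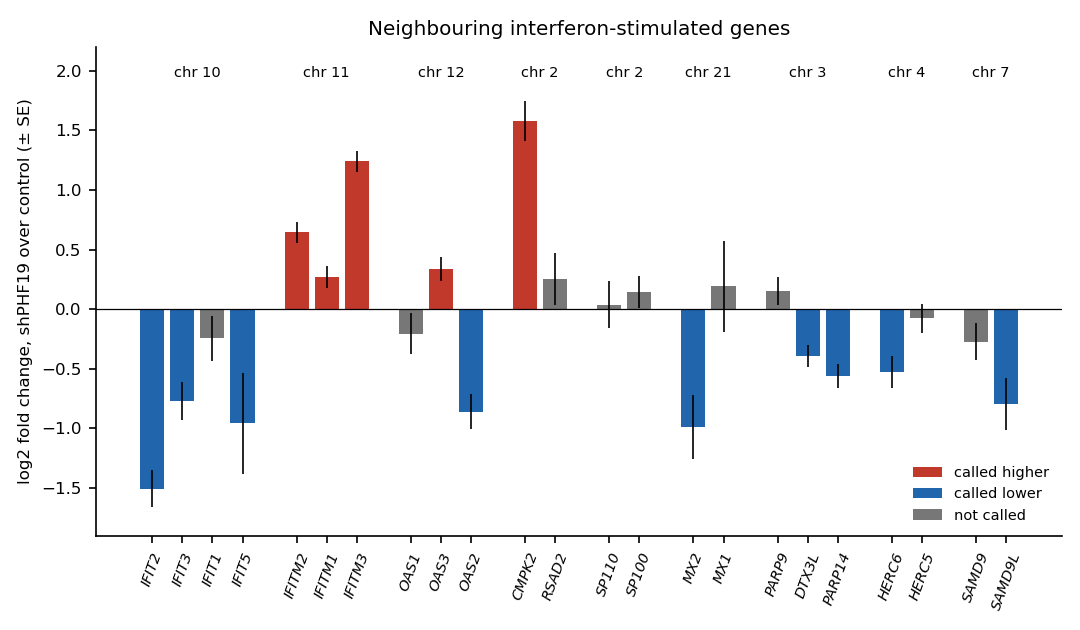
Log2 fold change (y axis, shPHF19 over control, with its standard error) of tested members that lie within 500 kb of another tested member, in order of position within each cluster, coloured by call. The IFIT cluster lies below 0, the IFITM cluster above it, and the OAS cluster holds 1 rise and 1 fall.

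The interferon genes themselves had next to no counts. Of 21 type I, II and III interferon genes, 15 had no count in any library, and none was tested. All together held 9 counts, of which 4 were IFNL1 in control replicate 2 alone. The summed level was 0 to 0.0742 CPM in shPHF19 cells and 0 to 0.295 CPM in control cells. Markers of plasmacytoid dendritic cells, the main producers of type I interferon in blood, summed to 1.11 to 1.88 CPM in shPHF19 cells and 1.72 to 2.85 CPM in control cells.

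Of 11 genes for receptors and JAK-STAT signalling, 10 were tested, 5 fell, 1 rose and 4 did not pass. The share called, 60%, was that of all genes tested (60.2%), with a median log2 fold change of -0.26. By direction, 50% fell and 10% rose, where 30.9% and 29.4% of all genes did. Neither type I receptor chain passed, at log2 fold changes of 0.04 (edgeR adjusted p = 0.772) for IFNAR1 and -0.04 (edgeR adjusted p = 0.776) for IFNAR2. Nor did the kinase gene TYK2 (0.01, edgeR adjusted p = 0.947), whose direction turned with the scaling. JAK1, the kinase on IFNAR2, had 100.1, 101 and 103 CPM in shPHF19 cells, against 157, 153 and 158 CPM in control cells, a log2 fold change of -0.62 (SE 0.0842, edgeR adjusted p = 1.53e-08). IRF9, the DNA-binding subunit, had 7.87, 8.94 and 5.03 CPM in shPHF19 cells, against 13.8, 14.7 and 13.7 CPM in control cells. The groups did not overlap, at 1.93-fold lower (log2 fold change -0.95, SE 0.179, edgeR adjusted p = 1.11e-05). For interferon gamma, the ligand-binding receptor chain IFNGR1 fell, with 32.3, 36.9 and 36.8 CPM in shPHF19 cells, against 101, 86.3 and 94.5 CPM in control cells (-1.41, SE 0.101, edgeR adjusted p = 9.3e-17), while the second chain IFNGR2 rose (0.43, edgeR adjusted p = 0.000238). IL10RB, shared by the receptor of type III interferon, was slightly lower (-0.27, edgeR adjusted p = 0.00804), and that call was lost without shPHF19 replicate 2 (adjusted p in edgeR = 0.115; 1.62e-05 to 0.115 over all alternatives).

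Of 21 genes of nucleic acid sensing and its adaptors 16 were tested, 5 rose, 5 fell and 6 did not pass. These shares, 31.2% each, were near the 29.4% and 30.9% of all genes tested. IRF7, the factor that amplifies interferon production and is itself interferon-inducible, fell most, with 4.31, 4.92 and 4.68 CPM in shPHF19 cells, against 17.3, 18.7 and 17.2 CPM in control cells. That is 3.82-fold lower (log2 fold change -1.93, SE 0.172, edgeR adjusted p = 1.36e-13). TMEM173, which encodes STING (-0.39, edgeR adjusted p = 0.000159), and the adaptor TRAF6 (-0.63, edgeR adjusted p = 1.75e-05) also fell. UNC93B1, the chaperone of endosomal Toll-like receptors, rose (0.80, edgeR adjusted p = 7.18e-11). TRIM25 (0.29, edgeR adjusted p = 0.00258) and RNF135 (0.33, edgeR adjusted p = 0.00387), ubiquitin ligases of the RIG-I pathway, rose slightly but were not called with library totals only (adjusted p in edgeR = 0.367 and 0.277; 0.000435 to 0.367 and 0.00165 to 0.277 over all alternatives).

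Among 13 negative regulators 12 were tested, 4 rose, 5 fell and 3 did not pass, so that 33.3% rose and 41.7% fell, where 29.4% and 30.9% of all genes did. RNF125, a ligase that marks RIG-I for degradation, fell most, with means of 13.5 CPM in shPHF19 cells and 33.1 CPM in control cells (-1.29, edgeR adjusted p = 4.22e-11), and SOCS3, a feedback inhibitor of JAK kinases, averaged 4.94 CPM in shPHF19 cells and 10.2 CPM in control cells (-1.05, edgeR adjusted p = 1.33e-05). TRIM38 (-0.67, edgeR adjusted p = 3.47e-06), IRF2 (-0.50, edgeR adjusted p = 0.000104) and the phosphatase gene PTPN2 (-0.40, edgeR adjusted p = 0.00151) fell as well. NLRC5, an activator of HLA class I genes that is also reported to restrain antiviral signalling, rose (0.56, edgeR adjusted p = 1.46e-06).

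A further 46 interferon-stimulated genes, taken as a list of their own, gave a split close to that of all genes. Of 39 tested, 11 rose (28.2%), 13 fell (33.3%) and 15 did not pass, with a median log2 fold change of -0.05. The proteasome subunit genes PSMB8 (0.98, edgeR adjusted p = 7.4e-13) and PSMB9 (0.83, edgeR adjusted p = 2.33e-06) and the aminopeptidase gene LAP3 (0.98, edgeR adjusted p = 3.44e-12) rose. HELZ2 (-1.22, edgeR adjusted p = 2.22e-09), NUB1 (-0.68, edgeR adjusted p = 1.19e-08) and the apolipoprotein L gene APOL6 (-0.69, edgeR adjusted p = 3.54e-08) fell. Over the 5 lists together, 21 of 77 genes tested rose and 28 fell. With library totals only 8 rose and 40 fell, where 19.9% of all genes rose and 43.2% fell. Rises among all genes went from 3820 with TMM to 2590 with library totals only, a smaller relative drop than in the lists.

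**Figure D5:**
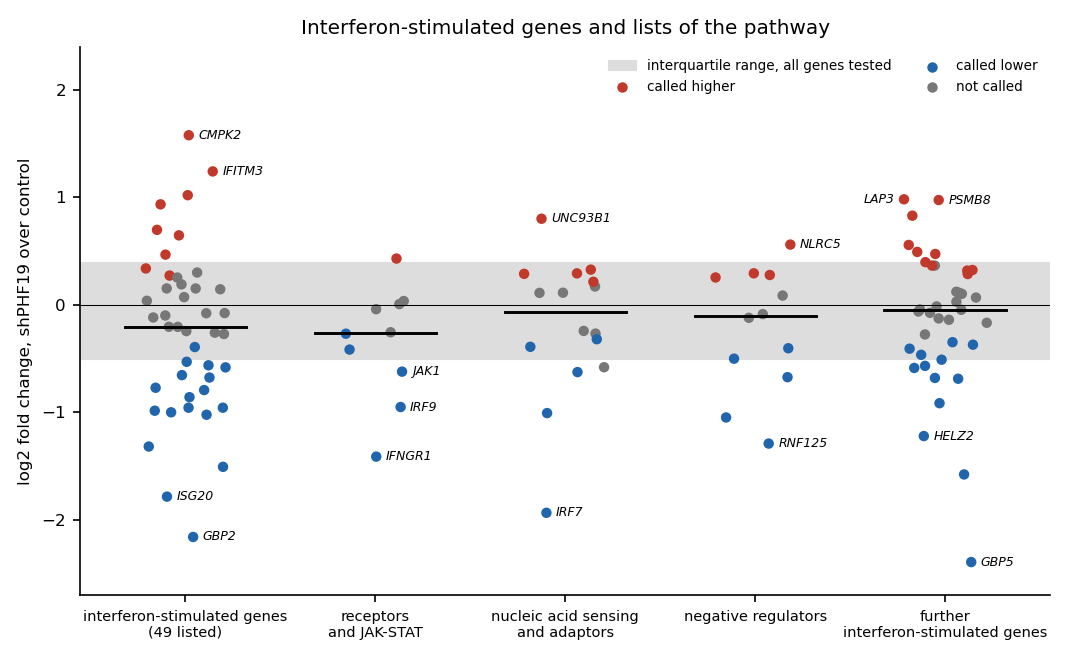
Log2 fold change (y axis, shPHF19 over control) of the tested members of each list (x axis), coloured by call, with the median as a line and the interquartile range of all genes tested, -0.50 to 0.39, as a grey band. The medians of all 5 columns lie within the band, and IRF7, IRF9, IFNGR1 and JAK1 lie below it.

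The authors' deposited table of their own comparison lists 24 of the 49 members, 7 higher and 17 lower, each in the direction found here, and its largest difference from the log2 fold changes given above is 0.17. Of the 27 members called here, IFIT5, IFITM1 and SAMHD1 are not in the authors' deposited table, whose largest adjusted p is 0.00993 and whose smallest absolute log2 fold change is 0.32.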

How the data were processed

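Counts per gene symbol in 6 RNA-seq libraries of Kasumi-1 cells were used. Per the labels' protocols, cells were lysed in TRIzol and a KAPA Hyper Prep kit was used for the libraries. The submitters' processing notes name the build hg38 with HTSeq 0.11.2 and HISAT2 2.1.0; annotation and strand setting are not given there. The authors deposited whole-number counts, not normalized. Their second deposited table gives a mean normalized signal, log2 fold changes, their standard errors (unit: score) and p-values from a tool not given there.

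The main test was edgeR 4.0.16, run in R 4.3.3 (filterByExpr, TMM, group as the only term, robust quasi-likelihood F test, Benjamini-Hochberg adjustment over 13014 genes, threshold 0.05). The standard error is the log2 fold change over the root of F. The fit was checked on simulated counts with known changes in few of 12858 genes. Of these changes, 77 of 93 at 2-fold and 63 of 100 at 1.41-fold were called in the right direction, with 8 false calls. In the data 60.2% of genes were called, so this check does not bear on the choice of scaling. Alternatives were 3 other scalings, 2 other filters, DESeq2 1.42.0, limma-voom (limma 3.58.1), a replicate block, a threshold of 0.01 and leaving out each library. Replicates differed beyond sampling noise, with chi-square per degree of freedom at 4.78 to 12.4 for each pair. Positions and exon lengths came from GENCODE 29, promoters from RefSeq. Protein sequences were not used here.

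The members and lists were chosen with earlier results of these data known, so no test was run over a list. Values in every library are given for members that were called, averaged at least 5 CPM and had an absolute log2 fold change of at least 0.5, and for the 8 most abundant; of each pathway list up to 6 genes with the smallest adjusted p are named, with the type I signalling genes. IFIT1 is also given per library, and was chosen after its values were seen. Some results that this rule covers are left out of the text.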

Additional observations from a re-analysis of the deposited data

How the results depend on the processing

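Of the 27 called members, 23 kept their call and direction in each of the 15 alternatives; IFIT5, IFITM1, SAMHD1 and OAS3 lost it in at least 1, as given above. Across the libraries left out in turn, 8 to 9 members rose and 17 fell each time. With all 6 libraries, 29.4% of all genes rose and 30.9% fell. Shares of all genes with a library left out are not given here, so steady counts cannot be called particular to the members. In these fits the median log2 fold change of interferon-stimulated genes was -0.21 to -0.13, set beside a median log2 fold change of all genes between -0.039 and -0.023. With upper-quartile factors these medians were -0.31 and -0.14, and with library totals only -0.41 and -0.24; the median of all genes was -0.017 with DESeq2 size factors, -0.077 with every gene with a count, and -0.077 under DESeq2. Of the pathway list genes, 21 rose, while 8 did with library totals only and 13 at a threshold of 0.01. The share of all genes that rose at 0.01 is not given here. Among all genes, 3820 rose and 4015 fell with TMM, 2590 and 5624 with library totals only, and 3190 and 4778 with upper-quartile factors.

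Directions that turned were those of genes not called with TMM. With library totals only the log2 fold changes were -0.014 for MX1, -0.13 for ADAR, -0.053 for ISG15, -0.053 for PARP9, -0.060 for SP100, -0.17 for SP110, -0.17 for IFNAR1 and -0.20 for TYK2, which was then called lower (edgeR adjusted p = 0.0365). With upper-quartile factors they were -0.031 for ADAR, -0.063 for SP110, -0.066 for IFNAR1 and -0.096 for TYK2, and TYK2 was at -0.0016 with at least 1 CPM in 3 libraries. With 1 library left out, ranges that cross 0 were -0.22 to 0.0061 for TRIM22, -0.13 to 0.15 for SP110, -0.15 to 0.018 for HERC5, -0.028 to 0.094 for IFNAR1, -0.094 to 0.075 for IFNAR2 and -0.045 to 0.075 for TYK2. Library totals only also brought IFIT1, OAS1, DDX60, SAMD9, HERC5 and STAT2 past the threshold as lower, and upper-quartile factors SAMD9. A change of scaling moved genes by a similar amount, whatever their call. The median of all genes was -0.03 with TMM, -0.14 with upper-quartile factors and -0.24 with library totals only. Why the scalings differ, and what moved the fits with 1 library left out, was not tested. With the replicate number as a block, 9 members rose and 17 fell, and the pathway lists had 19 higher and 26 lower. Shares of all genes in that fit are not given here, and in the main fit 29.4% rose and 30.9% fell. Deviations of same-numbered libraries from their group means correlated at -0.16, -0.0066 and -0.054, and those of differently numbered libraries at -0.13 to 0.17. With 3 libraries in each group, this cannot settle whether the numbers pair the samples. Depth limits the 5 members that were not tested, for which no difference was detectable at these counts.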
